A study of Mus musculus with 168 samples.

Results

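Mir128-1, Mir128-2, Mir138-1 and Mir138-2 are 4 microRNA genes that give rise to 2 microRNAs of neurons, miR-128 and miR-138, each from a pair of paralogous genes at separate places in the genome. They were chosen by name and are 4 of the 1626 transcripts in the deposited table of cortex microRNA expression and 4 of the 329 microRNAs that were tested. Small RNA of the cortex was sequenced from 168 C57BL/6 mice, 8 mice (4 from female and 4 from male cages) for each of 7 genotypes at 2, 6 and 10 months. All lines but WT are heterozygous for a knock-in at Htt, in which exon 1 comes from human HTT with its CAG repeat, while the other Htt allele is wild type, and they are named by the repeat as Q20, Q80, Q92, Q111, Q140 and Q175. Q175 arose from the Q140 line by a spontaneous expansion of the repeat. WT mice are littermates of the Q20 line, and the study treats Q20 mice as controls. The Q20 and WT libraries together were the controls at 2 and 10 months (16 libraries per age). At 6 months the controls were the 8 Q20 libraries, because the study's methods do not list the 8 libraries labelled as 6-month WT, which are shown apart.

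A microRNA gene is transcribed into a hairpin, from which the enzymes Drosha and Dicer release a short duplex. A strand of that duplex, the guide, is loaded onto an Argonaute protein and represses messenger RNAs that pair with its seed, the bases near its 5′ end. miR-128 is abundant in adult brain neurons and is known to limit neuronal excitability and motor activity. miR-138 is enriched in brain and is known for its role at synapses, where it restrains the growth of dendritic spines.

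The guide strands are shown because each is made by both genes of its pair, so that a read of the guide alone cannot tell the paralogs apart. All 4 genes had an entry in the RefSeq sequence table (GRCm38.p6). Capitals mark the seed, bases 2 to 8.
miR-128-3p, from Mir128-1 and Mir128-2: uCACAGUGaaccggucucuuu
miR-138-5p, from Mir138-1 and Mir138-2: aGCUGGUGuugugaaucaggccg
The opposite arms differ between the paralogs in length or sequence, and the Mir128 arms share a seed while the Mir138 arms do not.
miR-128-1-5p: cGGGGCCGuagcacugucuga
miR-128-2-5p: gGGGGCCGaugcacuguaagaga
miR-138-1-3p: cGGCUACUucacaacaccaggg
miR-138-2-3p: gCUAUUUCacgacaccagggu
No other of the 1679 mature mouse names in that table carries the seed of miR-128-3p or of miR-138-5p.

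The whole hairpins are shown because they are the only place where reads of the paralogs can differ. Capitals mark the guide strand.
Mir128-1: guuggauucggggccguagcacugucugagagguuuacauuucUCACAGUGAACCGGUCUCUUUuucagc
Mir128-2: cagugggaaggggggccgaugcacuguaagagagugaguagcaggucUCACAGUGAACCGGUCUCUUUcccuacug
Mir138-1: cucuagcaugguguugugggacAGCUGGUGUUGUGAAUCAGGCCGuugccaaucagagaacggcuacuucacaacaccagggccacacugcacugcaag
Mir138-2: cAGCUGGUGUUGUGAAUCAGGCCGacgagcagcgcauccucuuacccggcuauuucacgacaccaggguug
The longest run shared within a pair was 23 bases for Mir128 and 24 bases for Mir138, so that the shared run reaches 2 bases and 1 base upstream of the guide. The bases just downstream of the guide differ in each pair, with uuca in Mir128-1, cccu in Mir128-2, uugc in Mir138-1 and acga in Mir138-2.

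On GRCm38, Mir128-1 (ENSMUST00000083586) lies at chr1:128202361-128202430 on the plus strand, in an intron of the protein-coding gene R3hdm1. Mir128-2 (ENSMUST00000083507) lies at chr9:112118636-112118711 on the minus strand, in an intron of Arpp21, which encodes a phosphoprotein regulated by cyclic AMP. Both have the same strand as their host gene. Mir138-1 (ENSMUST00000083480) lies at chr9:122682876-122682974 on the plus strand, in an exon of a transcript of the pseudogene Gm47135. Mir138-2 (ENSMUST00000083578) lies at chr8:94324311-94324381 on the plus strand, in an exon of the long noncoding RNA C78859.

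The deposited unit is an estimated count per transcript, and how reads of a shared guide strand were divided between paralogs is not given in the sources used here. Levels and changes of the 2 genes of a pair are therefore uncertain as separate values, and sums over each pair are given for the main comparisons. Library totals ranged from 2041741 to 11646287 counts with a median of 4810487, and the 329 tested microRNAs held 66.7% of all counts. The genes had 67342 to 337564 counts per library for Mir128-1, 23434 to 141940 for Mir128-2, 858 to 8472 for Mir138-1 and 12527 to 83413 for Mir138-2, so that low counts did not limit the comparisons.

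Per length, Mir128-1 was the highest of the 4 genes and Mir138-1 the lowest. On the authors' FPKM scale (reads scaled by transcript length and library total), the mean level over 160 libraries without 6-month WT was 386936 ± 53980 (SD) for Mir128-1, 154015 ± 16610 for Mir128-2, 124291 ± 40150 for Mir138-2 and 8875 ± 1952 for Mir138-1. Mir128-1 ranked 5, Mir128-2 ranked 13, Mir138-2 ranked 15 and Mir138-1 ranked 77 among the 329 microRNAs by mean FPKM pooled over ages. The order Mir128-1, Mir128-2, Mir138-2, Mir138-1 held in 130 of 160 libraries, and Mir138-2 exceeded Mir128-2 in the other 30. By age, Mir138-2 exceeded Mir128-2 in 14 of 56 libraries at 2 months, in 0 of 48 at 6 months and in 16 of 56 at 10 months. The FPKM of Mir128-2 and Mir138-2 lay within their spread of each other at 2 months (162063 ± 12003 and 147354 ± 26288) and 10 months (161097 ± 14712 and 146717 ± 21073), and apart at 6 months (136362 ± 7483 and 71219 ± 4058). The lengths behind the FPKM were 82 and 84 bases for the Mir128 genes, against 70 and 76 bases in the annotation.

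The level of the 4 genes by mouse is given here as CPM, the estimated count scaled by the TMM-normalized library total, on a scale common to all 168 libraries, which compares libraries for a gene and not genes with each other. The Mir138 genes were lower at 6 months than at the other ages, while the Mir128 genes differed little. All 48 libraries of 6-month knock-in mice had less Mir138-2 (4360 to 5709 CPM, median 5248) than the lowest of the 112 libraries of 2 and 10 months (6888 CPM, median 10099, highest 13861). The medians differed by a ratio of 1.92. For Mir138-1 the 6-month libraries had 543 to 775 CPM against 684 to 1222 CPM, a ratio of medians of 1.48, and 34 of 48 lay below the lowest of the others. The same ratio of medians was 1.08 for Mir128-1 and 1.12 for Mir128-2, with overlap in both. The 48 knock-in libraries of 6 months carry another naming scheme than those of 2 and 10 months. The 8 libraries labelled as 6-month WT carry the scheme of 2 and 10 months, and their Mir138-2 (3607 to 6526 CPM) also lay below 6888 CPM in every library. Some markers of other cells moved too: the summed median of microglia and immune markers was 836 CPM in 6-month Q20 mice against 246 and 182 in controls of 2 and 10 months, and that of vessel wall markers 38500 against 23100 and 17900. Choroid plexus markers were lower (2440 against 3350 and 3680). Those of oligodendrocytes (541 against 444 and 599) and liver (1.37 against 1.01 and 1.86) lay between the other ages. Red blood cells had 45.7 against 38.1 and 45.4. By mean level over the 168 libraries, the sum of microglia and immune markers was nearly all Mir146. That of oligodendrocytes was nearly all Mir219a-2, and that of the choroid plexus nearly all Mir204. Red blood cells and liver had a single marker each, Mir144 and Mir122. The vessel wall apart, each sum thus mostly follows a single microRNA and not a set of markers of that cell. The part of these markers and of the library preparation in the Mir138 values was not tested, and no test across 6 months and the other ages was made. How large a share of all microRNAs separates as fully between these ages was not counted. The separation is therefore not shown to be particular to Mir138.

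**Figure D1:**
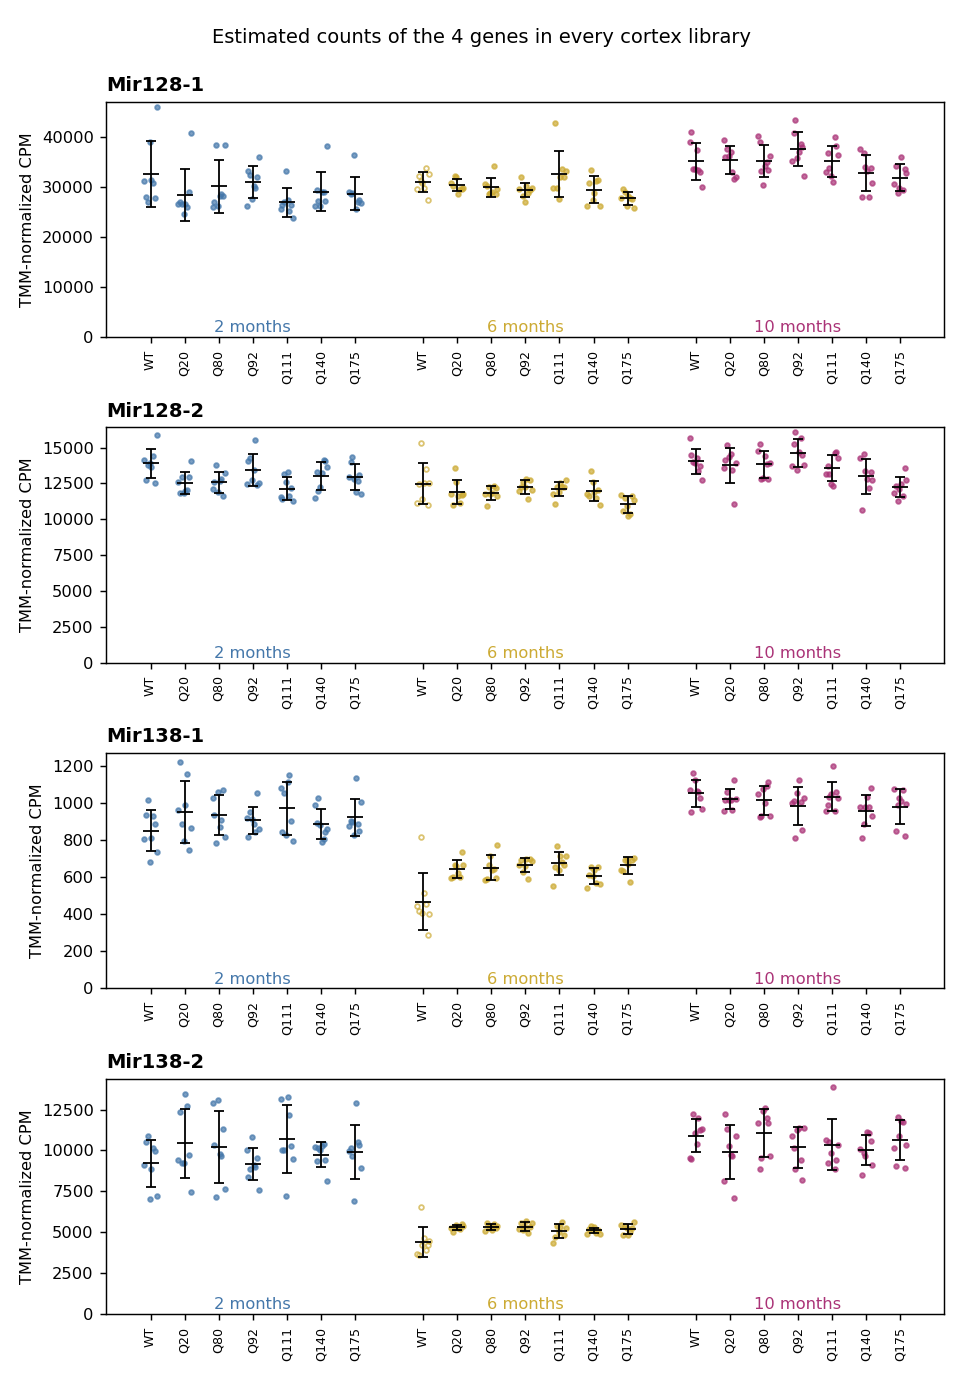
Level of each gene (TMM-normalized CPM, axis from 0) in every library by genotype and age; points are mice, bars are the mean ± SD of 8 mice, and open points are the 6-month WT libraries. All 48 Mir138-2 values of 6-month knock-in mice lie below 6888, the lowest value of the 112 libraries of 2 and 10 months.

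The 8 libraries labelled as 6-month WT stood apart for the Mir138 genes as well. Mir138-1 was at 467 ± 154 CPM (SD, n = 8) in these libraries against 598 to 734 CPM in the 8 Q20 mice of that age, and 7 of the 8 lay below the lowest of the 48 knock-in libraries of that age. Mir138-2 was at 4417 ± 927 against 5304 ± 147, in Q20 mice, with 5 of 8 below the lowest knock-in library. The share of all microRNAs that separate in this way was not counted, so the difference is not shown to be particular to Mir138. The summed markers of other cells differed in the same libraries, with medians of 224 CPM against 541 in Q20 mice for oligodendrocytes, 451 against 836 for microglia and immune cells and 6.48 against 1.37 for liver, and their part was not tested. Mir128-1 (30983 ± 2015 against 30412 ± 1220) and Mir128-2 (12473 ± 1428 against 11884 ± 830) overlapped with Q20. With these libraries among the controls, Mir138-1 rose with CAG length at 6 months (0.15 per 100 CAG units on the log2 scale, edgeR adjusted p = 0.032), against -0.03 without them (adjusted p = 0.773). Both Mir128 genes were then called as well, with slopes of -0.09 for Mir128-1 (edgeR adjusted p = 0.0142) and -0.08 for Mir128-2 (adjusted p = 0.00716).

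At 2 months the levels of Mir128-1 and Mir138-2 moved with the L number in the library name, which the labels do not define. The 4 libraries with L number 7, from a Q111, a Q20, a Q80 and a WT mouse, had 33333 to 45988 CPM of Mir128-1 and 7127 to 7461 CPM of Mir138-2. The 41 libraries with L number 1 or 2, from all 7 genotypes, had 25268 to 33330 CPM of Mir128-1 and 8403 to 13436 CPM of Mir138-2. The sets thus did not overlap for either gene, though for Mir128-1 they nearly touched (33330 against 33333 CPM). They overlapped for Mir128-2 (12599 to 15897 CPM with L number 7 against 11397 to 15517) and for Mir138-1 (735 to 865 against 746 to 1222). The share of all microRNAs that separate by L number was not counted. The 9 libraries with L number 3 spread over both ranges (23756 to 39095 CPM of Mir128-1). At 10 months the L numbers were 6, 7 and 8, and the ranges of Mir128-1 overlapped between them (30611 to 43378, 27983 to 41050 and 29894 to 38090 CPM).

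**Figure D2:**
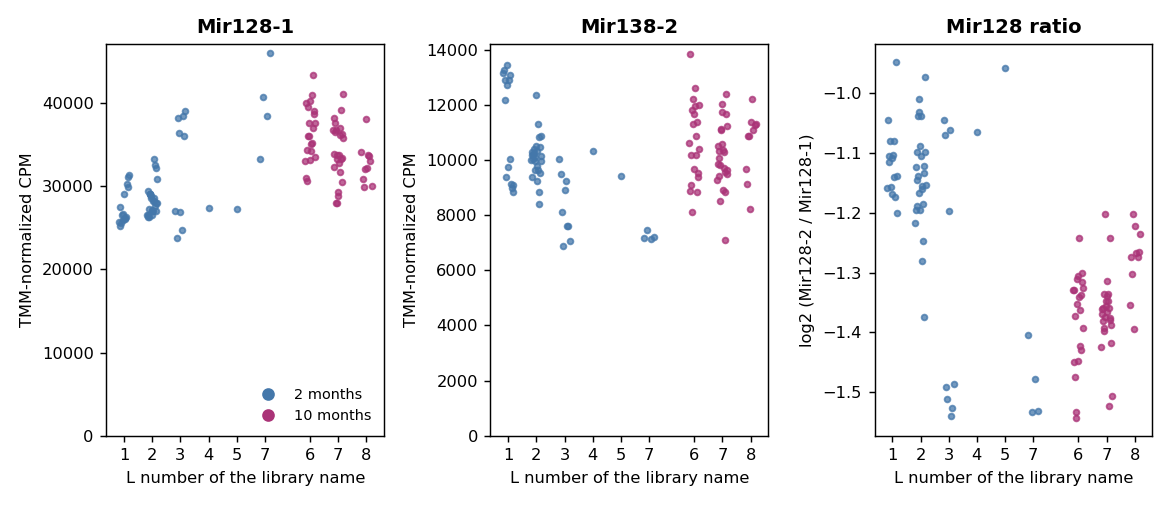
Mir128-1 and Mir138-2 levels (TMM-normalized CPM) and the log2 ratio of Mir128-2 to Mir128-1 in each library of 2 and 10 months, by the L number in the library name; each point is a mouse. The 4 libraries of 2 months with L number 7 lie at 33333 to 45988 for Mir128-1 and at 7127 to 7461 for Mir138-2.

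Both Mir128 genes were lower in 10-month Q175 mice than in controls, and neither Mir138 gene passed the test. This comparison asks which microRNAs differ in the line with the longest repeat at the oldest age. Mir128-2 was at 11280, 12236 and 13556 CPM (lowest, median, highest of 8) in Q175 mice and at 11043, 13985 and 15682 CPM in the 16 controls. All 8 Q175 mice lay below the control median, and 12 of 16 controls lay above the highest Q175 mouse, while the lowest control, Q20 male M2, lay below the lowest Q175 mouse. The means were 12237 ± 711 (SD, n = 8) and 13897 ± 1035 (n = 16). The change fitted by edgeR was -0.20 on the log2 scale (95% interval -0.28 to -0.11, adjusted p = 0.00163).

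Mir128-1 was at 28874, 31684 and 36074 CPM (lowest, median, highest) in 10-month Q175 mice and at 30001, 34878 and 41050 CPM in controls. The groups overlapped, with 7 of 8 Q175 mice below the control median and 7 of 16 controls above the highest Q175 mouse. The log2 change was -0.16 (95% interval -0.26 to -0.06, adjusted p = 0.0375, edgeR with Benjamini-Hochberg adjustment). Two-sided quasi-likelihood tests called 2 of the 4 genes, and 12.2% of all microRNAs tested in this comparison were called. In bulk tissue, fewer cells of a type and less RNA per cell cannot be told apart.

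The Mir138 genes showed smaller values in the same mice. Mir138-1 was at 823, 1002 and 1073 CPM in Q175 mice and at 949, 1024 and 1161 CPM in controls, with 2 Q175 mice below the lowest control. Its log2 change was -0.10 (95% interval -0.20 to 0.01, adjusted p = 0.229). Mir138-2 was at 8930, 10619 and 12044 CPM against 7101, 10625 and 12232 CPM, a log2 change of 0.02 (95% interval -0.15 to 0.19, adjusted p = 0.94).

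The change of Mir128-2 kept its sign within each L number of the 10-month libraries. Q175 minus controls in mean log2 CPM was -0.22 for L number 6 (3 against 7 mice), -0.14 for L number 7 (4 against 4) and -0.17 for L number 8 (1 against 5). For Mir128-1 these differences were -0.12, -0.23 and -0.12. Mir128-2 was called in all 24 fits that left out a library (adjusted p 8.91e-05 to 0.0064) and Mir128-1 in 18 of 24 (adjusted p 0.00903 to 0.0978). The call of Mir128-1 was lost without Q175 F1, F3, F4 or M2, without Q20 F5, or without WT M1. With Q20 as the only controls neither gene was called (log2 change -0.16 for Mir128-1, adjusted p = 0.0911, and -0.19 for Mir128-2, adjusted p = 0.059). Mir128-1 was also not called with all transcripts as features (adjusted p = 0.0688) or with all genotypes in the fit (adjusted p = 0.0703).

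At 6 months the change of the Mir128 genes in Q175 mice had the same sign, and edgeR as described here called neither gene. Mir128-1 was at 25943, 27796 and 29674 CPM in Q175 mice and at 28741, 30098 and 32244 CPM in Q20 mice, with all 8 Q175 mice below the Q20 median and 6 of them below the lowest Q20 mouse. The log2 change was -0.15 (95% interval -0.26 to -0.05, edgeR adjusted p = 0.125). Mir128-2 was at 10233, 11134 and 11682 CPM against 10963, 11707 and 13553 CPM, again with all 8 Q175 mice below the Q20 median, and its log2 change was -0.09 (95% interval -0.21 to 0.03, adjusted p = 0.464). edgeR called 0 of 4 genes, where 2.77% of all microRNAs were called, 1 gene had an unadjusted p under 0.05, and DESeq2 called 1, Mir128-1 (adjusted p = 0.00264). edgeR called Mir128-1 with all transcripts as features (adjusted p = 0.0121) and with filterByExpr (adjusted p = 0.0419), and Mir128-2 with all genotypes in the fit (adjusted p = 0.0191). None of the 8 Q175 libraries shared an L number with a Q20 library at 6 months, so the L number and the genotype cannot be told apart. The fits also included the library code in the name, which is V for Q175 F1, F2 and M1 and LB for every Q20 mouse. The fitted changes therefore rest on the Q175 libraries with the code LB, while the ranges cover all 8.

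At 2 months no gene was called in Q175 mice (0 of 4 by edgeR and 0 by DESeq2, 0 with an unadjusted p under 0.05), and the share called over all microRNAs was 0%. The log2 changes ran from -0.09 for Mir128-1 (95% interval -0.31 to 0.12) to 0.03 for Mir138-1 (95% interval -0.15 to 0.20). The intervals of Mir128-1 at 2 and 10 months overlapped.

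In the lines with shorter repeats, none of the 48 values (4 genes, Q80, Q92, Q111 and Q140, 3 ages) was called by edgeR or by DESeq2, and 3 had an unadjusted p under 0.05. The share of all microRNAs called was 0% in each of these comparisons except Q92 at 6 months, where it was 0.311%. The log2 changes ran from -0.19 to 0.11, the lowest for Mir128-1 in 2-month Q111 mice and the highest for Mir138-2 in the same group. The 3 values with an unadjusted p under 0.05 were Mir128-1 in 6-month Q140 mice (-0.10, adjusted p = 0.588), Mir138-1 in 10-month Q140 mice (-0.12, adjusted p = 0.383) and Mir128-2 in 2-month Q111 mice (-0.13, adjusted p = 0.825). All these comparisons share their controls with the Q175 comparison of the same age.

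**Figure D3:**
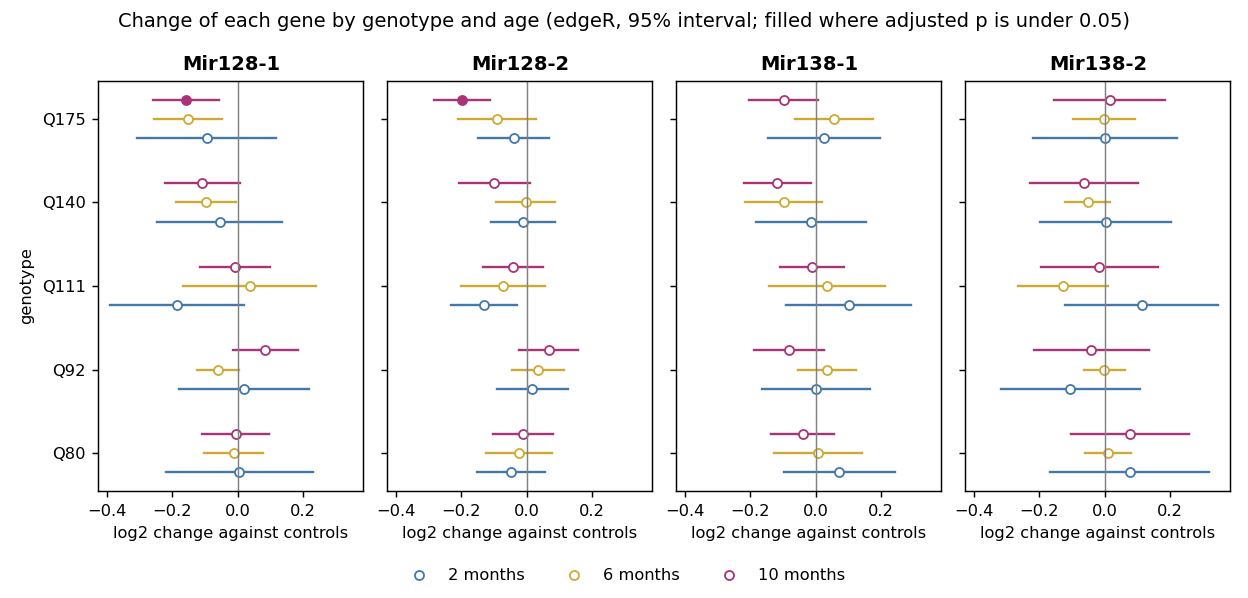
Log2 change of each gene against controls by genotype and age, as fitted by edgeR, with 95% intervals; filled points have an adjusted p under 0.05. The 2 filled points are Mir128-1 (-0.16) and Mir128-2 (-0.20) in 10-month Q175 mice.

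With CAG length as a numeric variable over all genotypes, Mir128-2 fell with the repeat at 10 months. By genotype its mean was 14028 ± 857 CPM (SD, n = 8 for each genotype) in WT and 13767 ± 1234 CPM in Q20 mice. Q80 mice had 13840 ± 937 CPM, Q92 mice 14640 ± 982, Q111 mice 13551 ± 912, Q140 mice 12986 ± 1227 and Q175 mice 12237 ± 711. The mean was thus highest in Q92 mice and lower in Q111, Q140 and Q175 mice, in that order. The slope was -0.10 per 100 CAG units on the log2 scale (SE 0.0294, edgeR adjusted p = 0.0219). Mir128-1 had a slope of -0.08 (SE 0.0337, adjusted p = 0.149), Mir138-1 -0.06 (SE 0.029, adjusted p = 0.21) and Mir138-2 -0.01 (SE 0.0436, adjusted p = 0.924). Thus edgeR called 1 of 4 genes, where 8.84% of all microRNAs were. Without the Q175 mice the slope of Mir128-2 was -0.04 (adjusted p = 0.762).

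At 6 months all 4 slopes were negative and edgeR called 0 of 4 genes, with 3 at an unadjusted p under 0.05 and 0 called by DESeq2. The share of all microRNAs called was 2.75%. The slopes per 100 CAG units were -0.10 for Mir128-1 (adjusted p = 0.124), -0.08 for Mir128-2 (adjusted p = 0.0855), -0.03 for Mir138-1 and -0.05 for Mir138-2 (adjusted p = 0.226). At 2 months 0 of 4 genes were called, none with an unadjusted p under 0.05 and 0 by DESeq2, in a comparison where 0% of all microRNAs were called.

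The Z statistics of 6 and 10 months were then combined with equal weight, so that a call can rest mainly on either age. Both Mir128 genes fell with CAG length (combined Z = -3.46 for Mir128-1, adjusted p = 0.00745, and -4.30 for Mir128-2, adjusted p = 0.000366). Mir138-1 (Z = -1.98, adjusted p = 0.179) and Mir138-2 (Z = -1.66, adjusted p = 0.285) did not pass. The study, in its own combination of these ages, lists Mir138-2 among the cortex microRNAs associated with CAG length at an FDR under 0.05. It used DESeq2 on counts in which outliers had been replaced. Without that replacement DESeq2 called 2 of the 4 genes here (42 of 327 microRNAs), the Mir128 genes and neither Mir138 gene. The source of the difference from the study was not tested. By edgeR 2 of 4 genes and 11.9% of all microRNAs were called in the combination made here. The combined Z of Mir128-2 held place 15 and that of Mir128-1 place 23 of 327 by p. Without the Q175 mice the combined Z was -0.92 for Mir128-1 and -0.80 for Mir128-2, and neither passed (adjusted p = 0.818 and 0.827).

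For Q175 against controls the combined Z was -3.97 for Mir128-1 (adjusted p = 0.00141) and -3.87 for Mir128-2 (adjusted p = 0.00167). The Mir138 genes had -0.60 and 0.11 (adjusted p = 0.74 and 0.939). Again 2 of 4 genes were called, beside 16.6% of all microRNAs. The 6-month libraries enter this value too, with the L numbers that Q175 and Q20 did not share.

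Q175 mice were also set against the lines with shorter repeats. Against Q140, edgeR called 0 of 4 genes at 10 months, with 0 at an unadjusted p under 0.05 and 0 by DESeq2, where 4.63% of all microRNAs were called. Mir128-2 differed by -0.10 on the log2 scale (95% interval -0.22 to 0.03). At 6 months edgeR called 0 of 4 (0% of all microRNAs), 2 had an unadjusted p under 0.05 and DESeq2 called 1, Mir128-2 (adjusted p = 0.0265, against 0.166 by edgeR). Mir138-1 was higher in Q175 than in Q140 by 0.13 (95% interval 0.03 to 0.23, adjusted p = 0.249). Against Q80 at 6 months 0 of 4 genes were called by edgeR and 0 by DESeq2 (2 at an unadjusted p under 0.05, 2.77% of all microRNAs called), with -0.12 for Mir128-1 (adjusted p = 0.238) and -0.12 for Mir128-2 (adjusted p = 0.158).

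Among controls, the first gene of each pair was higher at 10 than at 2 months. Mir128-1 was at 24681, 27960 and 45988 CPM (lowest, median, highest of 16) at 2 months and at 30001, 34878 and 41050 CPM at 10 months. Its log2 change was 0.22 (95% interval 0.07 to 0.36, adjusted p = 0.0133). Mir138-1 was at 684, 887 and 1222 CPM at 2 months and at 949, 1024 and 1161 CPM at 10 months, a change of 0.21 (95% interval 0.09 to 0.33, adjusted p = 0.00303). Summed over each pair, the Mir128 genes were higher by 0.16 (adjusted p = 0.0362), while the Mir138 sum was not called (0.09, adjusted p = 0.382). Mir128-2 (0.08, adjusted p = 0.111) and Mir138-2 (0.09, adjusted p = 0.377) did not pass, though Mir128-2 was called without 10-month Q20 M2 or without 2-month WT M4. These calls, 2 of 4, stand beside 49.7% of all microRNAs called between these ages. Of the 11 markers of other cells, 4 rose (Mir219a-2, Mir155, Mir144 and Mir204) and 3 fell (Mir146, Mir143 and Mir211) between these ages, and their part was not tested.

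The 2 ages share only L number 7, with 2 control libraries at 2 months and 4 at 10 months. Within it, the difference in mean log2 CPM, 10 minus 2 months, was -0.25 for Mir128-1 and 0.36 for Mir138-1. Against the 12 control libraries of 2 months with L number 1 or 2, the 16 controls of 10 months had 0.32 more Mir128-1 and 0.14 more Mir138-1. Neither gene was called with the library size alone as normalization (0.15, adjusted p = 0.0676, and 0.14, adjusted p = 0.0715), and Mir138-1 was not called with Q20 alone as controls (0.07, adjusted p = 0.546). With the L number as a factor Mir128-1 changed by -0.25 (adjusted p = 0.154). Over all genotypes, the difference between the slopes on CAG length at 2 and 10 months was tested, and it passed for none of the 4 genes by edgeR (0 of 4 called, 0 at an unadjusted p under 0.05, 0 by DESeq2, 1.83% of all microRNAs called). The difference in slope was -0.07 for Mir128-2 (95% interval -0.15 to 0.00, adjusted p = 0.452).

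A sum over the genes of a pair does not depend on the division of shared reads, provided that each was counted once. Whether such reads were dropped or counted for both genes is not given in the sources used here. The Mir128 sum had a slope of -0.09 per 100 CAG units at 10 months (SE 0.031, edgeR adjusted p = 0.0522), with 0 of 2 sums called, 1 at an unadjusted p under 0.05 and 1 called by DESeq2 (adjusted p = 0.0478), where 7.06% of all features were called. At 6 months the slope was -0.09 (adjusted p = 0.157, 0 of 2 called, 1 at an unadjusted p under 0.05, 0 by DESeq2, 1.85% of all features) and at 2 months -0.06 (adjusted p = 0.813, 0 of 2 called, 0 at an unadjusted p under 0.05, 0 by DESeq2, 0% of all features). In Q175 mice against controls the Mir128 sum changed by -0.07 at 2 months (adjusted p = 0.887), by -0.17 at 6 months (adjusted p = 0.0575) and by -0.16 at 10 months (adjusted p = 0.0209). Its combined Z was -3.83 for CAG length (adjusted p = 0.00226) and -4.59 for Q175 (adjusted p = 0.000108). The TMM scaling was computed anew for the fits with sums. At 6 months the change of the Mir128 sum in Q175 mice lay outside those of its genes (-0.15 for Mir128-1 and -0.09 for Mir128-2). The part of the scaling in the values of the sums was not tested. The Mir138 sum had slopes of 0.02, -0.04 and -0.02 at 2, 6 and 10 months (adjusted p = 0.999, 0.367 and 0.796).

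Within a library, the log2 ratio of the paralogs did not differ detectably between Q175 mice and controls. Mir128-1 exceeded Mir128-2 by a ratio of 2.44 and Mir138-2 exceeded Mir138-1 by 9.72 over 160 libraries, in estimated counts. In 10-month Q175 mice the log2 ratio of Mir128-2 to Mir128-1 was -1.38 ± 0.080 (SD, n = 8) against -1.34 ± 0.101 in 16 controls, a difference of -0.04 ± 0.041 (SE) with an exact permutation p of 0.358, two-sided. For Mir138-2 to Mir138-1 it was 3.44 ± 0.109 against 3.32 ± 0.221, a difference of 0.12 ± 0.083 (exact permutation p = 0.161). None of the 6 exact permutation tests (2 pairs, 3 ages) passed after adjustment over them (adjusted p from 0.482 to 0.722, raw p from 0.108 to 0.722).

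Between ages the Mir128 ratio of the controls differed. It was -1.19 ± 0.172 at 2 months and -1.34 ± 0.101 at 10 months (n = 16 each), a difference of -0.15 ± 0.050 (SE, permutation p = 0.00484 with 100000 resamples, adjusted p = 0.00968 over 2 tests). Within L number 7, which both ages share, the difference had the other sign, 0.11 (4 against 2 libraries), and the ratio of the 4 libraries of 2 months with that number was -1.53 to -1.40. The Mir138 ratio differed by -0.12 ± 0.068 (permutation p = 0.0744, adjusted p = 0.0744).

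**Figure D4:**
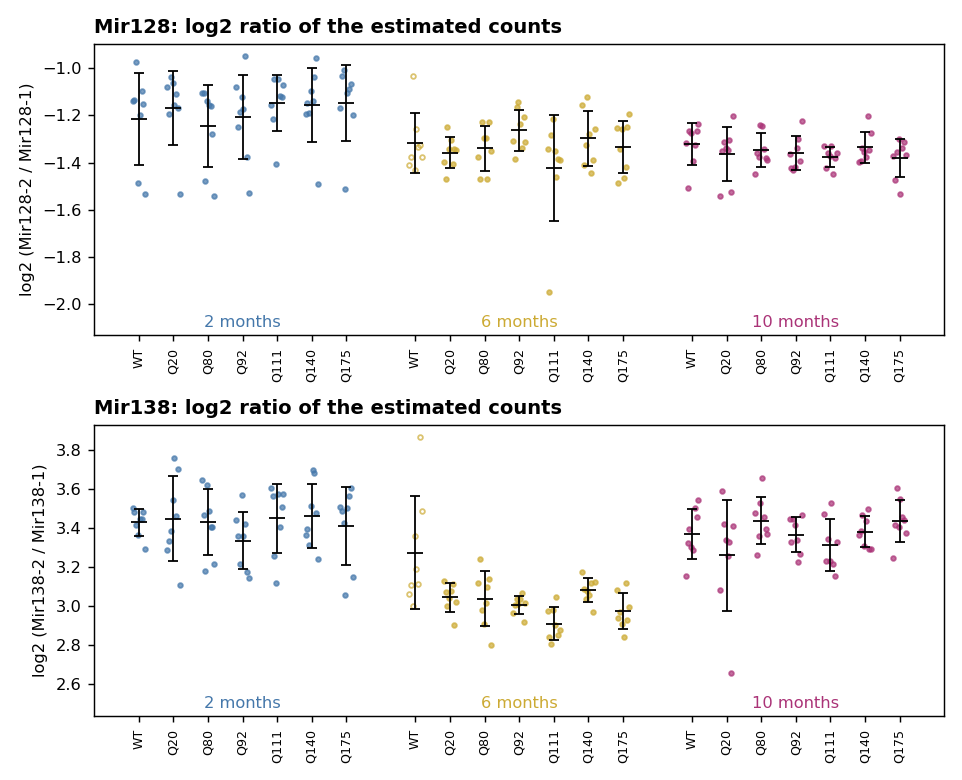
Log2 ratio of the estimated counts of the paralogs in each library (Mir128-2 over Mir128-1, Mir138-2 over Mir138-1) by genotype and age; points are mice, bars are the mean ± SD of 8 mice, open points are 6-month WT libraries, and the axes do not start at 0. Q175 mice overlap with the controls at each age, and the Mir138 ratio averages 3.04 in 6-month Q20 mice against 3.45 at 2 months.

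Leaving out the 6-month WT libraries, the median spread between mice of a group was lowest at 6 months for each gene. The coefficient of variation of Mir138-2 had a median over groups of 4.06% at 6 months, against 16.9% at 2 and 12.2% at 10 months. For Mir128-2 these medians were 4.70%, 6.90% and 6.73%, for Mir128-1 they were 5.57%, 13.4% and 9.14%, and for Mir138-1 7.19%, 11.7% and 7.62%. The highest value of a single group at 6 months was 14% for Mir128-1, above the 11.1% at 10 months. The libraries labelled as 6-month WT had 33% for Mir138-1, 21% for Mir138-2, 11.4% for Mir128-2 and 6.5% for Mir128-1. The paralogs of a pair deviated together from their group means, with a Pearson r of 0.55 for Mir128 and 0.66 for Mir138 over 160 libraries in 20 groups. These correlations are a description only, since libraries, normalization and any division of shared reads are common to both genes.

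The microRNAs most like each gene were sought among 202 others with a mean of at least 100 counts, by Pearson r of log2 CPM over 160 libraries, each centred on its mean at each age. They were Mirlet7g (0.62), Mir150 (0.60) and Mirlet7f-2 (0.54) for Mir128-1, and Mir674 (0.64), Mir29a (0.61) and Mir487b (0.56) for Mir128-2. For Mir138-1 they were Mir31 (0.57), Mir107 (0.56) and Mir103-2 (0.53), and for Mir138-2 Mir666 (0.78), Mir31 (0.65) and Mir107 (0.60). Mir31 and Mir107 stood among these 3 for both Mir138 genes. Within an age the likeness differed: Mir150 with Mir128-1 had an r of 0.84 at 2 months and -0.26 at 6 months, and with Mir138-2 the r at 6 months was 0.10 for Mir31 and 0.20 for Mir107. Mir128-1 and Mir138-2 had an r of -0.55 with each other, and the median r over the 202 others lay between -0.04 and 0.01 for each of the 4 genes.

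Of 20 names of other neuronal microRNAs, 15 were tested. In 10-month Q175 mice 3 of them fell, 0 rose and 12 did not pass, with a median log2 change of -0.14 against -0.01 over all microRNAs tested. These calls are 20% of the list, beside 12.2% of all microRNAs. Mir132 and Mir212, activity-regulated microRNAs of a shared cluster, fell by 0.36 each on the log2 scale (adjusted p = 0.000121 and 4.52e-05), and Mir124a-3, which encodes the neuronal microRNA miR-124, changed by -0.42 (adjusted p = 0.0447). Mir124a-2, another gene of miR-124, was at 0.25 (adjusted p = 0.602). In the association with CAG length at 10 months 2 of the 15 fell, Mir212 (-0.20 per 100 CAG units) and Mir132 (-0.17), with a list median of -0.07 against 0.00 over all, and 13.3% of the list called beside 8.84% of all microRNAs. At 6 months 1 of 15 fell in the association, Mir212 (-0.13), and 1 in Q175 mice, Mir132 (-0.21), each 6.67% of the list beside 2.75% and 2.77% of all microRNAs. In the association over both ages combined, Mir212, Mir132 and Mir9-3 fell and 0 rose, 20% of the list beside 11.9% of all. For Q175 against controls over both ages combined the list lay below the whole. There 2 of 15 fell, Mir212 and Mir132, which is 13.3% of the list beside 16.6% of all. Between 2 and 10 months in controls 7 of the 15 rose and 2, Mir7-1 and Mir7-2, fell, 60% of the list beside 49.7% of all.

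Markers of other cells of the tissue, 11 microRNAs in 6 lists, were above 0 in all 168 libraries. In 10-month Q175 mice 1 of the 11, the choroid plexus microRNA Mir204, was called, with a log2 change of -0.72 (adjusted p = 0.0398). Mir211, the other microRNA of its list, had the other sign and was not called (0.28, edgeR adjusted p = 0.378). The summed level of this list, nearly all Mir204, was 2520 to 3070 CPM in Q175 mice and 2470 to 10900 CPM in the 16 controls. The part of the choroid plexus in the Mir128 values was not tested. The lists of oligodendrocytes (584 to 669 against 531 to 679 CPM), microglia and immune cells (178 to 222 against 161 to 332), vessel wall (16400 to 21900 against 16900 to 24000), red blood cells (37.3 to 48.8 against 36.3 to 58.5) and liver (0.419 to 6.97 against 0.432 to 9.46) overlapped, and none of their 9 members was called. In the associations with CAG length at 6 months, at 10 months and combined, none of the 11 was called by edgeR.

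The summed level of 8 microRNAs of the Mir200 and Mir182 clusters, chosen after their values were seen, ranged from 267 to 36100 CPM at 2 months, from 469 to 42900 at 6 months and from 231 to 1790 at 10 months. With this level as a covariate, Mir128-2 was called in 10-month Q175 mice (-0.23, adjusted p = 0.00113) and Mir128-1 was not (-0.17, adjusted p = 0.072). In controls between 2 and 10 months Mir128-1 then changed by 0.08 (adjusted p = 0.508) and Mir138-1 by 0.35 (adjusted p = 0.000318).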

How the data were processed

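Small RNA of mouse cortex was sequenced as short strand-specific reads that, per the study's methods, were clipped and aligned with STAR to mm10. The labels name CASAVA 1.8.2. The authors deposited an estimated count per Ensembl transcript (48.1% of values above 0 were not whole, while the methods name HTSeq) and FPKM values for the same transcripts. Estimated counts were rounded to whole numbers for the tests. The FPKM served only to compare levels between genes.

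GENCODE (GRCm38) gave a name to 1228 of the 1626 transcripts. Totals, 2041741 to 11646287 per library, covered all transcripts, and intervals between mice include counting error. Groups and the L number came from the labels, and sex from the cage, which in 2 libraries differs from the labelled sex. Tests used edgeR 4.0.16 (R 4.3.3, limma 3.58.1), with TMM scaling and two-sided robust quasi-likelihood F tests on the listed microRNAs with at least 1 count. Covariates were sex and, for 6-month fits, the library code (V or LB). No 6-month Q20 library had the code V, so the change of a line against Q20 rests on its LB libraries. CAG length was 7 for WT. The Z values of 6 and 10 months were combined with equal weight. Benjamini-Hochberg adjustment covered all microRNAs of a fit, and calls were made at an FDR of 0.05. Paralog ratios were tested by permutation. On simulated data with planted changes the same code was tested first.

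Alternatives were the RLE normalization, library size alone, DESeq2 1.42.0, all transcripts, filterByExpr, the labelled sex, all genotypes in the fit, a replicate block, paralogs summed, the 6-month WT libraries, the library code, the L number, Q20 alone as controls, no Q175 mice, libraries left out and, added after the data were seen, the Mir200 and Mir182 level. The genes named are the 4 genes, for likeness the 3 microRNAs with the highest r, and fixed lists of neuronal and marker microRNAs. The 4 genes, the lists and the tests were chosen with earlier results of these data known. P-values set a difference against the spread between mice. At 6 months Q80, Q92, Q140 and Q175 share no L number with Q20, and 2 and 10 months share only L number 7. There a p-value cannot tell the L number from genotype or age.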

Additional observations from a re-analysis of the deposited data

Results flagged for a closer look

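In 17 of 126 groups of 8 libraries (4 genes and 2 paralog ratios, 21 groups each) the highest or lowest library lay farther from its nearest neighbour than Dixon's critical share of the group's range. Chance alone gives about 1 in 20 groups, but the genes and ratios share libraries, so the groups are not independent. The 6 for Mir128-1 were all high, at 33333 CPM (Q111, 2 months, F4), 38253 (Q140, 2 months, M4), 36458 (Q175, 2 months, F4), 40786 (Q20, 2 months, M4), 42793 (Q111, 6 months, F2) and 34202 (Q80, 6 months, M2). Those of 2 months carry L number 7 (Q111 F4 and Q20 M4) or L number 3 (Q140 M4 and Q175 F4). For Mir128-2 it was 1 library, the lowest 10-month Q20 mouse (M2, 11043 CPM), and without it the 10-month controls were higher in Mir128-2 than those of 2 months past the threshold. In the 10-month Q111 mouse M1 both Mir138 genes were high, Mir138-1 at 1200 CPM and Mir138-2 at 13861 CPM. In the 6-month WT mouse F3 they were high too, at 816 and 6526 CPM, nearer to the knock-in libraries of that age than to the other WT libraries. The 2-month Q140 mouse M4 had the lowest Mir138-2 of its group, 8131 CPM.

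The log2 ratio of Mir128-2 to Mir128-1 stood apart in 5 groups. It was -1.95 in the 6-month Q111 mouse F2, -1.49 in the 2-month Q140 mouse M4, -1.51 in the 2-month Q175 mouse F4 and -1.53 in the 2-month Q20 mouse M4, each of which also stood apart in Mir128-1. In the 6-month WT mouse F3 the ratio was -1.03, the highest of its group. No library stood apart in the Mir138 ratio by this measure.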

How the results depend on the processing

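Under another of the 20 settings there were 1330 values: changes of the 4 genes and their sums, paralog ratios and places by level. Some settings apply to ratios or levels only (a pseudocount, permutation within sex, counts per annotated base). Of the 1330, 1180 had the same direction and side of the threshold, or the same place. A call was lost in 17 and gained in 17, 2 changed sign with a call before or after, and 114 uncalled values had another sign. Mir138-1 at 6 months had a slope of 0.147 with the 6-month WT libraries, and Mir128-1 in controls between 2 and 10 months changed by -0.248 with the L number as a factor. The causes were not tested.

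Calls among the 4 genes moved as follows. In the association at 6 months 3 genes were called with the 6-month WT libraries (0 as reported). At 10 months (1 as reported) it was 2 with library size alone and with Q20 alone as controls, and 0 with paralogs summed and without Q175, and the combined association (2 as reported) also had 0 without Q175. For Q175 at 6 months (0 as reported) 1 gene was called by DESeq2, with all transcripts, with filterByExpr and with all genotypes in the fit, and for Q175 against Q140 at 6 months 1 by DESeq2. For Q175 at 10 months (2 as reported) 1 was called with all transcripts, with all genotypes, with the replicate block and with the Mir200 and Mir182 level, 0 with Q20 alone, and 1 to 2 without single libraries. For controls between 2 and 10 months (2 as reported) 0 were called with library size alone and with all transcripts, and 1 with the L number, with Q20 alone and with the Mir200 and Mir182 level. For the sums (0 as reported) 1 was called at 6 months with the WT libraries, and at 10 months with library size alone, DESeq2, filterByExpr, the L number, Q20 alone and the Mir200 and Mir182 level.

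With sex and replicate number as a replicate block, Mir128-1 in 10-month Q175 mice was not called (-0.146, adjusted p = 0.0518), and no other call changed. The numbers did not pair the mice: deviations of same-numbered libraries had a mean correlation of -0.0595, -0.0392 and 0.00238 at 2, 6 and 10 months.

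Depth did not limit these genes, since the lowest count was 858. What limits them is the unstated division of shared reads, the L numbers that Q175 and Q20 do not share at 6 months, and the other naming scheme of the 6-month knock-in libraries.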
